A study of Homo sapiens with 7 samples.

Results

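S100P clone 5 was compared with S100P clone 1, a pair of single-cell clones of the human pancreatic cancer line Panc1, which is established in culture. The comparison took the 4 arrays whose labels name these clones, arrays a and b of each, out of 7 arrays in the series, and covered all 54613 probe sets that are not array controls. Both clones carry the plasmid pcDNA3.1/S100P-V5-His, which was made to overexpress S100P. The other 3 arrays are of clones with the empty plasmid pcDNA3.1/V5-His, 2 of clone V3 and 1 of clone V1. V1 is named in another style than the other 6 arrays, and whether it was processed together with them is not given in the sources used here. All cells grew in DMEM with 10% FBS and were harvested at 70 to 80% confluence, with no other agent named. Each group is a single clone, so an effect of the amount of S100P and a property of the clone cannot be told apart. Nothing in the labels states that the a and b arrays stem from different cultures, and the spread behind the p-values, that between these arrays, may therefore be technical.

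S100P is a small calcium-binding protein that signals inside and outside the cell and is abundant in many pancreatic cancers. Many of the genes described here belong to response programmes that most cells share. Growth factors and stress switch on early response genes, among them the AP-1 factors of the FOS, JUN and ATF families, which bind DNA through a basic leucine zipper (bZIP). When amino acids run short or unfolded proteins collect in the endoplasmic reticulum, phosphorylation of a translation factor slows protein synthesis and raises ATF4, a bZIP factor that turns on genes of amino acid uptake and synthesis and of growth arrest.

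S100P itself was at 5.80 and 5.95 on clone 1 and at 5.36 and 5.45 on clone 5 (log2 values, arrays a and b). Both clone 5 arrays lay below both clone 1 arrays, and the difference of -0.47 (SE 0.13) did not pass in limma, with an adjusted p of 0.142. The two-sided exact permutation test returned p = 0.333, the smallest that 2 arrays against 2 can give. The vector clones read 5.65 and 6.01 for V3 and 4.65 for V1, so neither S100P clone stood above V3. Whether this probe set reads the transgene's message is not given in the sources used here.

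As a check of the cell type, the ductal keratins KRT8, KRT18 and KRT19 were above 10 on every array. Of all 17 ductal markers measured, 7 were at least 6 on every array and 8 were below 6 on every array. All 9 acinar, all 10 endocrine and all 13 leukocyte markers measured were below 6 on every array. Of 13 fibroblast and 14 endothelial markers, 10 and 12 were below 6 throughout. The summed linear values of the leukocyte list were 274 and 276 on clone 1 and 307 and 309 on clone 5. In that list CD14 passed the test at a low level, with values of 3.95 and 3.79 on clone 1 and 4.57 and 4.64 on clone 5. The endothelial sums were also higher on clone 5, 448 to 478 against 406 to 430, and the fibroblast sums lower, 759 to 761 against 774 to 802. These sums take COL1A1 at a probe set that did not pass, whereas 2 of its other probe sets were much lower on clone 5, as described with the collagens. The acinar sums (124 to 127 against 118 to 126) and the endocrine sums (164 to 166 against 162 to 167) overlapped. Arrays of a clone correlated at 0.998 (clone 1) and 0.996 (clone 5), and arrays of different S100P clones at 0.992 to 0.995. Some RNA controls moved with the clone. The difference between the 3' and the 5' ACTB control, a measure of RNA integrity and labelling, was 0.53 and 0.44 on clone 1 and 0.29 and 0.27 on clone 5 (log2). The mean of 3 controls for 18S ribosomal RNA was 6.48 and 6.43 on clone 1 and 6.90 and 7.41 on clone 5. The mean of 18 hybridisation spikes was 9.81 and 9.77 on clone 1, and 10.2 on array a and 9.75 on array b of clone 5.

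Clone 5 differed from clone 1 mainly by lower expression. In limma, at an adjusted p of 0.05 over all probe sets, 1195 probe sets passed, which is 2.19% of those tested (0.584% higher and 1.6% lower). With each gene taken at its probe set of highest mean, 597 of 19775 genes passed (3.02%). Of these, 133 were higher in clone 5 (0.673%) and 464 were lower (2.35%). Of 9694 genes with a mean log2 value of at least 6, 474 passed (4.89%), 105 higher (1.08%) and 369 lower (3.81%). Quantile normalization of the arrays a second time gave 272 higher and 548 lower genes, so the share that was higher moved from 22.3% to 33.2%. The smallest difference called was 0.44 on the log2 scale, and 28 higher and 117 lower genes reached a fold of 2. The median difference of all genes was 0.02. A fit of the 4 arrays alone, or one without any single array of clone 1, clone 5 or V3, gave 0 calls over all probe sets in limma, with 8562 probe sets at an unadjusted p of 0.05 in the former and 4468 to 11537 in the latter. Among probe sets of mean log2 of at least 6, a combination chosen after seeing the data, the same reduced fits called 2153 probe sets (4 arrays) and 912 (without array a of clone 1) to 2529 (without array b of clone 5).

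**Figure D1:**
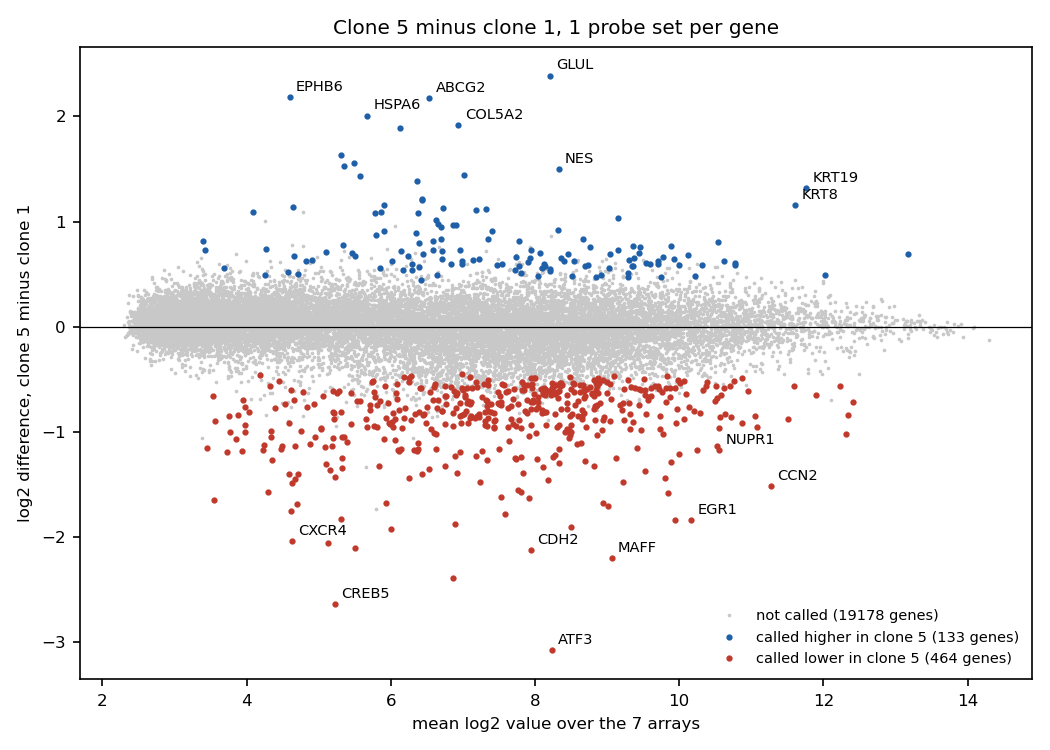
The log2 difference of clone 5 minus clone 1 (vertical axis) is plotted against the mean log2 value over the 7 arrays (horizontal axis), with 1 point per gene. The 464 genes called lower in clone 5 are in red and the 133 called higher in blue; ATF3 lies lowest and GLUL highest, and KRT8 and KRT19 are the called genes labelled at the right.

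Early response genes, the first transcripts to change after a stimulus, included many that were lower in clone 5. Of 37 measured members of this list, 15 were lower in clone 5 (40.5%) and 1, RGS2, was higher, and the list's median difference was -0.47. Over all genes, 2.35% were lower and 0.673% higher, and at a mean log2 of at least 6, 3.81% and 1.08%. These shares apply to the later lists too. In the overlapping list of 41 bZIP factors, 12 were lower and 0 higher, with a median of -0.40. The lower genes comprised FOSB, FOSL1, FOSL2, JUN, JUND, ATF3, MAFF, CREB5, BACH1, DDIT3, CEBPB and NFIL3 among the bZIP factors, and EGR1, MYC, KLF4, KLF6, KLF10, DUSP1, DUSP5, DUSP6, SPRY2 and ZFP36 besides. ATF3, a factor induced by many stresses, was at 10.52 and 10.46 on clone 1 and 7.22 and 7.61 on clone 5, and V3 read 7.39 and 7.65 and V1 6.82. The clone 1 arrays stood apart, and clone 5 lay within the range of the vector clones. JUN, a core AP-1 subunit, was at 10.95 and 10.97 and 9.47 and 9.30, a difference of -1.58 (SE 0.10, adjusted p 0.00115), and its 3 other probe sets were also lower.

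EGR1, a zinc finger factor induced within minutes by ERK signalling, was at 11.94 and 11.77 on clone 1 and 10.11 and 9.93 on clone 5 (log2 difference -1.84, SE 0.11, adjusted p 0.00115). V3 read 10.03 and 10.12, close to clone 5, but V1 read only 7.29, so the vector clones differed from each other by more than the S100P clones did. DUSP5, a nuclear phosphatase that switches ERK off, was at 9.84 and 9.92 and 8.16 and 8.25. Here clone 5 lay below V3 (8.79 and 8.89) and V1 (8.76), which in turn lay below clone 1. RGS2, which shortens signalling by G proteins, went the other way, from 5.14 and 5.08 on clone 1 to 6.67 and 6.31 on clone 5. Its level on V3 (8.39 and 8.22) was above that of either S100P clone, and on V1 (4.70) below both.

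The promoters of a few genes are shown as examples of matches to short known motifs, such as those that bZIP factors bind. All of them carry a match, so they do not stand for their lists, whose shares are given below the sequences. The printed sequences are the 250 bases before the start of transcription in RefSeq (GRCh38.p14), 5' to 3' on the gene's strand. Capitals mark matches, on either strand, to the cyclic AMP response element TGACGTCA (CRE), the AP-1 motif TGANTCA, the C/EBP-ATF motif TGATGNAA or the heat shock element GAANNTTCNNGAA. ATF3 carries a C/EBP-ATF match, MAFF and PPP1R15A each a CRE, DDIT3 an AP-1 match, and HSPA6, a heat shock gene described further on, a heat shock element and 2 AP-1 matches.
ATF3 (chr1:212565157-212565406, plus strand): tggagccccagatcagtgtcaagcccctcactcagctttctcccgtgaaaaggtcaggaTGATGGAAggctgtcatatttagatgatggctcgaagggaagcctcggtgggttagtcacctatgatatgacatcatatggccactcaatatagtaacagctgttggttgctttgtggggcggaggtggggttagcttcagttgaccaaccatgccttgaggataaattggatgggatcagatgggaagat
MAFF (chr22:38201744-38201993, plus strand): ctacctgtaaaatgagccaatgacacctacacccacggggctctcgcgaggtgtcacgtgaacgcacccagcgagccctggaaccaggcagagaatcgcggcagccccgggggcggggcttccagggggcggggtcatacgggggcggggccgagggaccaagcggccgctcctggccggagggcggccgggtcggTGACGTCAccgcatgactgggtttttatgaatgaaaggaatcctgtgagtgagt
PPP1R15A (chr19:48872171-48872420, plus strand): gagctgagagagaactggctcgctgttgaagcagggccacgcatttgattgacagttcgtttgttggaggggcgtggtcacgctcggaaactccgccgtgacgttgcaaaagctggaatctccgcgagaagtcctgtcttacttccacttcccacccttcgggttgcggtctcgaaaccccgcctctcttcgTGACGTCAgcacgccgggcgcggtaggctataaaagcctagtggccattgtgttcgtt
DDIT3 (chr12:57520515-57520764, minus strand): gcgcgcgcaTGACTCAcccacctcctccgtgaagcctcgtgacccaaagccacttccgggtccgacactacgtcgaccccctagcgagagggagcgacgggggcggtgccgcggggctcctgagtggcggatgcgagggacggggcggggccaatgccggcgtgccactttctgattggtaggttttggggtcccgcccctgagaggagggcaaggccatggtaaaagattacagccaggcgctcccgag
HSPA6 (chr1:161524290-161524539, plus strand): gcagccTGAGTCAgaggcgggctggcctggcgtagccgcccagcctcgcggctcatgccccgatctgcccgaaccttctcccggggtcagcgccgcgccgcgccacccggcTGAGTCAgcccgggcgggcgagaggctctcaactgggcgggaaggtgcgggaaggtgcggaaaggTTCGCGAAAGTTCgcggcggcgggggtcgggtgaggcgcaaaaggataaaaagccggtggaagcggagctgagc
A CRE was found in the promoters of 16 of 369 lower genes that had one (4.34%), in 2 of 106 higher genes (1.89%), in 2.81% of the 15384 measured genes with a promoter and in 2.03% of all 27305 genes with one. In the bZIP list it was found in 6 of 38 (15.8%), and in the mitosis list, whose called members were higher, in 4 of 30 (13.3%). The AP-1 motif was found in 9.21% of lower and 7.55% of higher genes, against 7.07% of measured genes and 8.06% of all, and in 1 of 29 promoters of the early response list (3.45%). The C/EBP-ATF motif was in 5.15% and 5.66%, against 3.19% of measured genes and 3.89% of all, and in 5 of 31 promoters of the amino acid response list (16.1%). The heat shock element was in 7 of 23 promoters of the heat shock list (30.4%), against 0.533% of measured genes and 0.557% of all. Where a gene has several listed starts, one with the match is printed above. A gene counts once whichever of its listed starts holds the match, and these shares are descriptions with no test.

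Genes of the ATF4 and amino acid response were also lower in clone 5. Of 35 measured members 16 passed, all lower, by -0.57 to -1.45, and 33 of 35 differences were below 0, with a median of -0.45. The 16 were ASNS, CHAC1, DDIT3, DDIT4, TRIB3, SESN2, PHGDH, SLC7A11, SLC3A2, SLC1A4, CEBPB, STC2, CTH, NUPR1, PCK2 and PPP1R15A. PPP1R15A, which lets translation resume after stress, was at 9.12 and 9.23 on clone 1 and 7.69 and 7.75 on clone 5 (-1.45, SE 0.09, adjusted p 0.00115). DDIT3 (CHOP), a bZIP factor of prolonged stress, was at 10.96 and 11.02 and 9.52 and 9.57. For these genes the vector clones were near or below clone 5, at 9.17 and 9.22 (V3) and 9.13 (V1) for DDIT3.

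SESN2, a sensor that restrains mTOR signalling when leucine is scarce, was at 9.94 and 10.08 on clone 1 and 8.66 and 8.69 on clone 5. NUPR1, a small chromatin protein of the stress response, was at 11.60 and 11.67 and 10.53 and 10.40, with V3 at 10.73 and 10.92 and V1 at 8.0. SLC7A11, which imports cystine in exchange for glutamate, was at 9.31 and 9.24 and 8.09 and 8.41. ASNS, asparagine synthetase, differed least of the 16, from 12.22 and 12.20 to 11.56 and 11.73 (-0.57, SE 0.10, adjusted p 0.0372). A second ASNS probe set was dim on all arrays (mean 2.90).

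Of 22 measured members of the unfolded protein response list, 2 were lower (9.09%, against 2.35% of all genes) and 0 higher, and the median was -0.01. These were ERN1, the IRE1 sensor of the endoplasmic reticulum, at 8.31 and 8.22 on clone 1 and 7.12 and 6.97 on clone 5, and HERPUD1, which serves degradation of misfolded proteins, at 10.29 and 10.24 and 9.42 and 9.44. In glutamine and glutamate metabolism, GLUL was higher and ASNS, SLC1A4 and SLC7A11 were lower, out of 22 measured. GLUL, glutamine synthetase, was at 6.23 and 6.14 on clone 1 and 8.53 and 8.61 on clone 5, and the vector clones, at 9.12 and 9.24 and 9.54, were above both S100P clones. Of 3 other GLUL probe sets 2 were also higher.

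Of 15 measured p53 targets, 4 were lower in clone 5 (26.7%) and 0 higher, with a median of -0.32. GADD45A, which is also a stress gene outside p53 control, was at 11.24 and 11.27 on clone 1 and 9.42 and 9.42 on clone 5, with V3 at 9.30 and 9.40 and V1 at 9.53. TNFRSF10B, a death receptor for TRAIL, was at 9.46 and 9.56 and 8.65 and 8.88, and PLK2, a polo-like kinase, at 8.78 and 8.71 and 7.93 and 7.88. SESN2 stood in both lists. Panc1 is known to carry mutant p53. CDKN1C, a CDK inhibitor of another list, was also lower, at 8.51 and 8.57 and 7.69 and 7.51, and its 4 other probe sets did not pass. In that list of 14, PLAGL1 was the other called gene and was higher (1.63), and the median was 0.06.

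The 8 called members of the mitosis list were higher in clone 5, and all 35 measured members had a positive difference, with a median of 0.33. They were CCNB1, CCNA2, KIF20A, TOP2A, HMMR, DLGAP5, CDCA3 and CDCA8, by 0.58 to 0.84. In DNA replication 5 of 35 were higher and 0 lower, with a median of 0.27. TOP2A, the topoisomerase that untangles chromosomes at division, was at 9.91 and 10.16 on clone 1 and 10.92 and 10.77 on clone 5. KIF20A, a kinesin of cytokinesis, was at 8.05 and 8.02 and 8.89 and 8.85 (0.84, SE 0.10, adjusted p 0.0128). MCM3, MCM4 and MCM7, subunits of the replicative helicase, were higher by 0.61, 0.55 and 0.59, and TK1, thymidine kinase, by 0.60. The vector clone V1 had the highest value of all 7 arrays for KIF20A (9.47) and MCM3 (10.55).

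**Figure D2:**
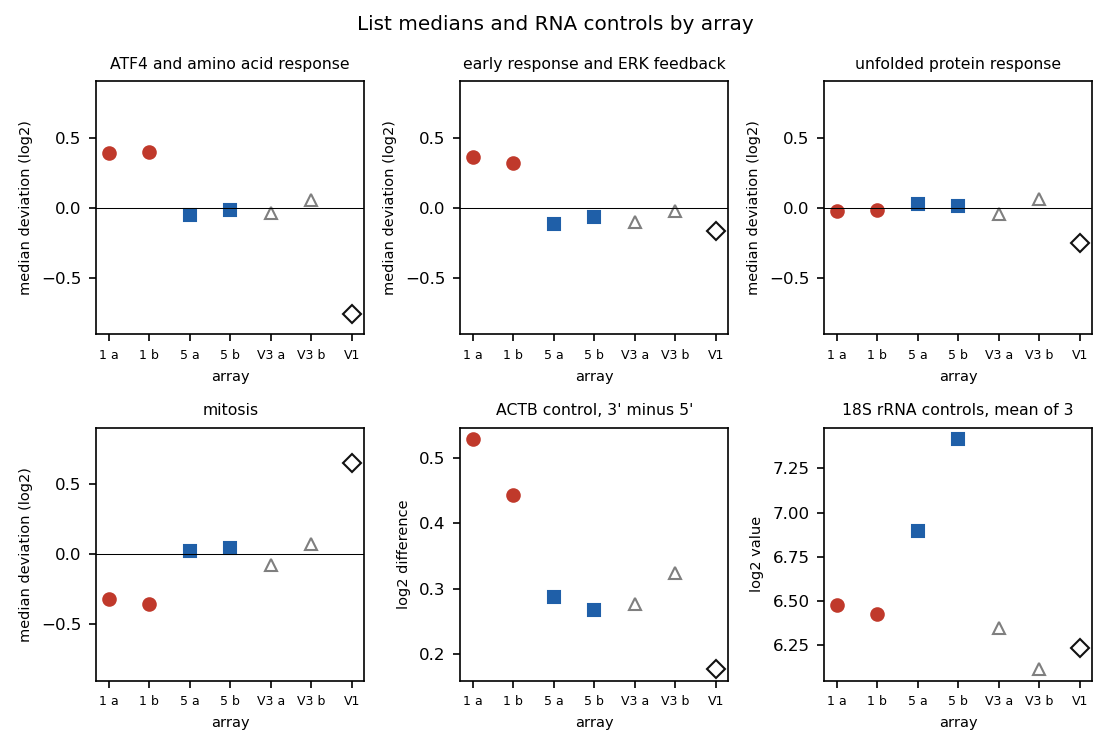
The upper row and the lower left panel show, for each array, the median over a list's members of the deviation from their mean over the 7 arrays (log2). The other panels show the ACTB 3' minus 5' control and the mean of 3 controls for 18S ribosomal RNA. Both clone 1 arrays (red circles) lie above 0 for the early response and ATF4 lists and below 0 for mitosis, and their ACTB values, 0.53 and 0.44, are the highest of the 7.

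The ACTB 3' minus 5' control thus moved with the early response, ATF4 and cell cycle groups, at 0.44 and 0.53 on clone 1 and 0.27 and 0.29 on clone 5, and its part in them was not tested. The list medians of clone 5 lay close to those of V3 in all 4 panels, and V3's ACTB values were 0.28 and 0.32. V1's ACTB value, 0.18, was the lowest of all arrays. V1 lay farther from 0 than clone 1 for the ATF4 (-0.76), mitosis (0.65) and unfolded protein response (-0.25) lists. For the early response list it lay nearer (-0.17).

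**Figure D3:**
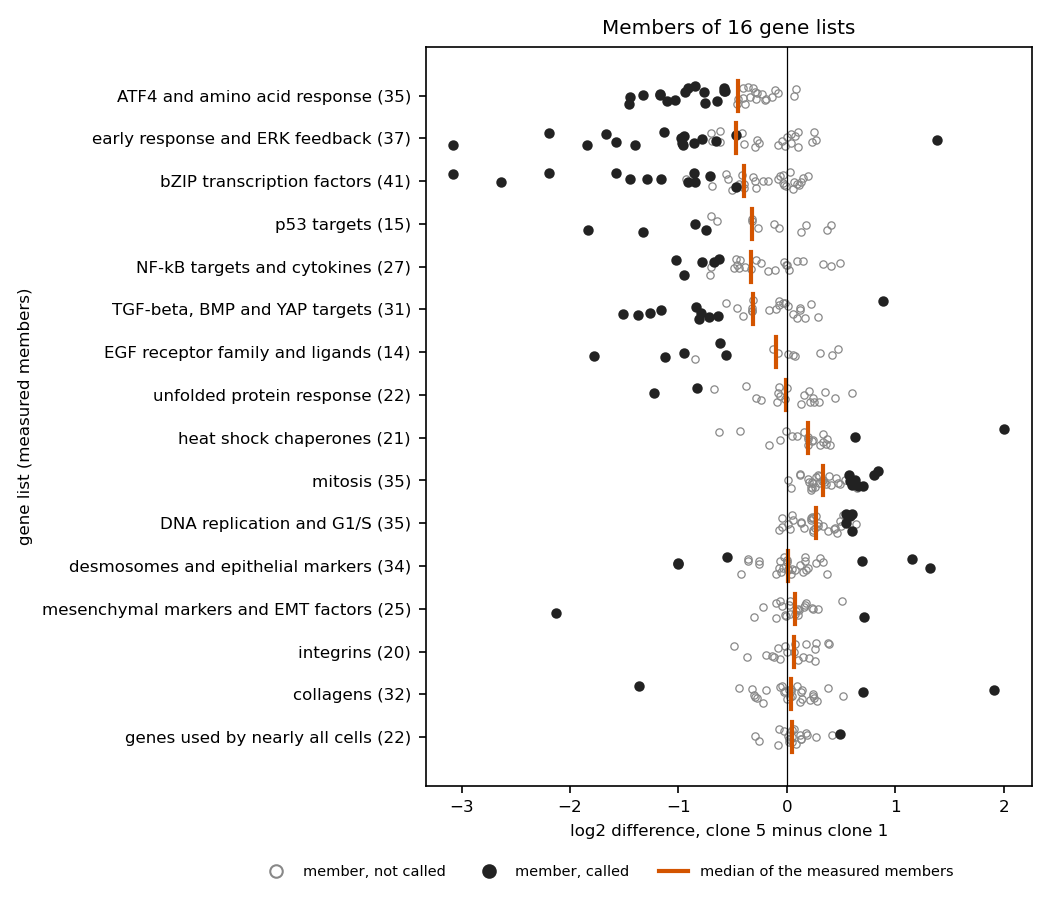
Each point is a measured member of 1 of 16 gene lists, placed at its log2 difference of clone 5 minus clone 1, with called members filled and the list's median as a bar. The ATF4, early response and bZIP lists lie mostly left of 0 (medians -0.45, -0.47 and -0.40), mitosis and DNA replication right of 0 (0.33 and 0.27), and the unfolded protein response and genes used by nearly all cells near 0 (-0.01 and 0.05).

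Growth factor and matrix signalling genes were lower in part. Of 14 members of the EGF receptor family and its ligands, 5 were lower (35.7%) and 0 higher. They were EGFR, ERBB3, HBEGF, NRG1 and ERRFI1. HBEGF, a membrane-anchored ligand of EGFR, was at 9.01 and 8.88 on clone 1 and 6.99 and 7.34 on clone 5, and vector clones read 6.75 and 6.88 and 7.19. EGFR itself differed by -0.61 (SE 0.11, adjusted p 0.0424), and its 8 other probe sets did not pass. ERBB3, at 5.16 and 5.06 and 3.66 and 4.30, was dim.

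In the list of TGF-beta, BMP and YAP targets, 9 of 31 were lower, TGFB2, TGFBR2, SKIL, ID3, CCN1, CCN2, AMOTL2, AJUBA and LTBP1, and 1, TGFBR3, was higher, with a median of -0.31. CCN2, a secreted matrix protein and a classic YAP target, was at 12.29 and 12.26 on clone 1 and 10.80 and 10.73 on clone 5, beside 11.01 and 11.12 for V3 and 10.65 for V1. AMOTL2, an angiomotin that holds YAP in the cytoplasm, was at 10.47 and 10.45 and 9.18 and 8.99, and AJUBA, a LIM protein of cell junctions, at 10.14 and 10.06 and 9.05 and 8.84. Clone 1 was the highest of the 4 clones for these genes. ID3, an inhibitor of helix-loop-helix factors and a BMP target, was at 9.21 and 9.07 on clone 1 and 7.84 and 7.93 on clone 5, with V3 far lower at 5.94 and 6.27 and V1 at 7.93, level with clone 5.

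Of 27 NF-kB targets and cytokines, 5 were lower (18.5%) and 0 higher, with a median of -0.33. CCL2, a monocyte chemokine, was at 10.01 and 10.08 on clone 1 and 9.02 and 9.02 on clone 5, and the vector clones (9.88 and 10.06 and 10.31) lay with clone 1. The same held for NFKBIA, the inhibitor that NF-kB induces, at 9.93 and 9.96 and 9.17 and 9.38 with V3 at 10.18 and 10.38. LIF, an interleukin family cytokine, was at 9.43 and 9.45 and 8.57 and 8.74 with V3 at 8.56 and 8.63, nearer clone 5. In the interferon list the calls went both ways, with IFIT1 higher (6.28 and 6.29 to 7.38 and 7.01) and IFIT2 (7.09 and 6.98 to 6.12 and 6.11) and IRF1 (7.31 and 7.32 to 6.54 and 6.36) lower among 35 measured.

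EDN1, the vasoactive peptide endothelin, was at 9.84 and 9.72 on clone 1 and 7.94 and 7.82 on clone 5, and its 2 other probe sets were also lower. ADM, adrenomedullin, and VEGFA were the 2 lower genes among 35 of the hypoxia and glycolysis list, by -1.02 and -0.78, and that list's median was 0.02. DKK1, a secreted Wnt antagonist, was at 12.84 and 12.77 and 12.06 and 12.11. With the receptors FZD5 and FZD6 it made up the 3 lower genes among 33 of the Wnt list (9.09%). A second FZD5 probe set was dim (mean 4.60).

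**Figure D4:**
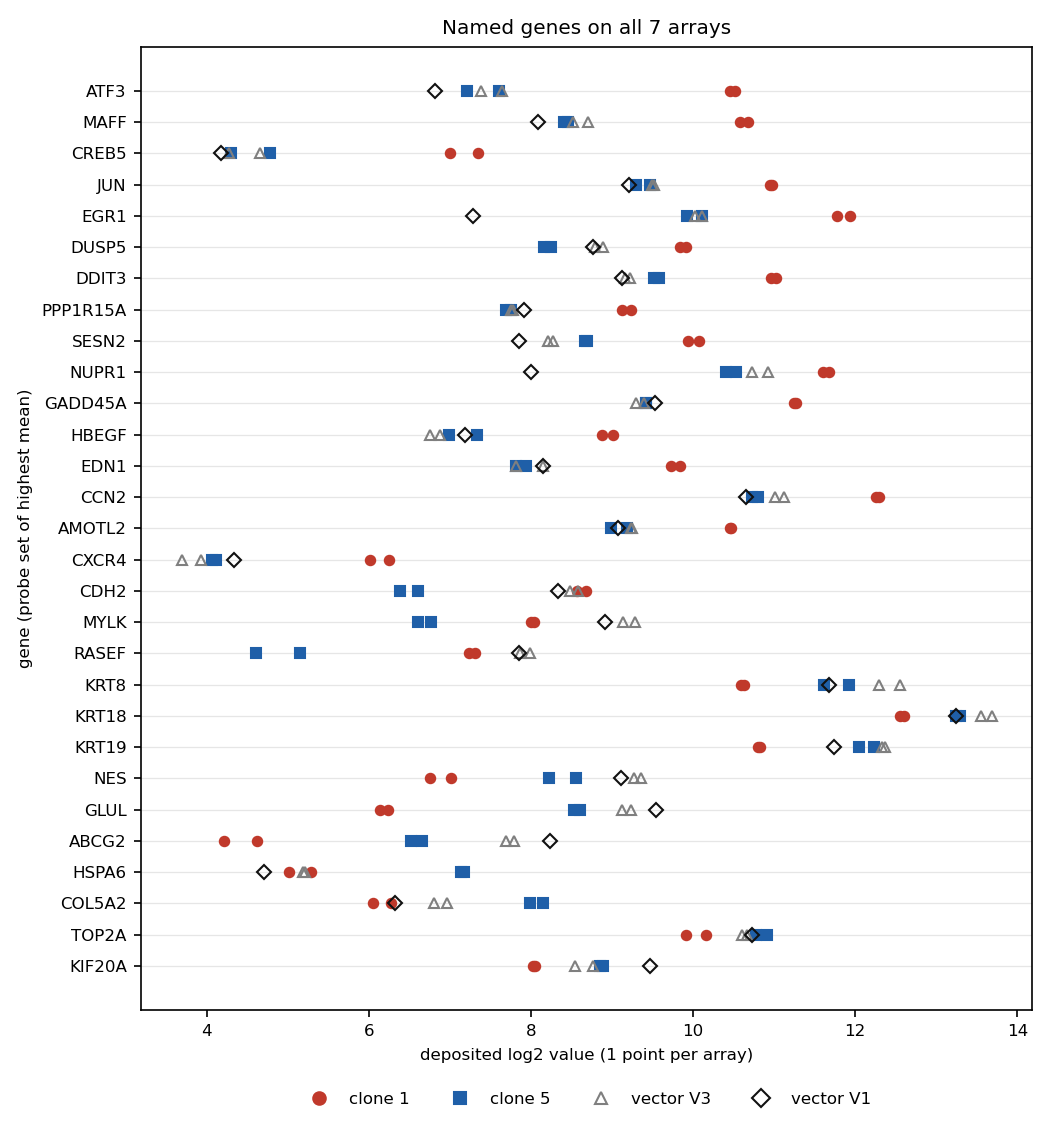
The log2 values of 29 named genes are plotted for all 7 arrays (horizontal axis), with clone 1 as red circles, clone 5 as blue squares and the vector clones as open symbols. From ATF3 to RASEF the red circles lie right of the blue squares, and from KRT8 down they lie left; for CDH2, MYLK and RASEF the vector clones lie with or beyond clone 1.

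Keratins of simple epithelium were higher in clone 5. KRT19 was at 10.80 and 10.83 on clone 1 and 12.04 and 12.23 on clone 5 (1.32, SE 0.10, adjusted p 0.00215). KRT8 was at 10.63 and 10.59 and 11.61 and 11.92, and its partner KRT18 at 12.55 and 12.60 and 13.29 and 13.25. The vector clones were within or above the range of clone 5 for KRT8, with 12.30 and 12.55 on V3 and 11.68 on V1. In the same epithelial list of 34, junction genes were lower, namely the desmosomal cadherins DSG2 (9.07 and 8.98 to 8.0 and 8.04) and DSC2 and the tight junction protein CLDN1 (9.32 and 9.19 to 8.34 and 8.16), so that the list's median was 0.01. NES, nestin, an intermediate filament of progenitor cells, was at 6.76 and 7.02 on clone 1 and 8.22 and 8.55 on clone 5, with V3 at 9.27 and 9.36.

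Of 25 mesenchymal markers and EMT factors, CDH2 was lower and SPARC higher. CDH2, N-cadherin, was at 8.68 and 8.57 on clone 1 and 6.61 and 6.39 on clone 5, while V3 read 8.49 and 8.58 and V1 8.33, so clone 5 alone was low. MYLK, myosin light chain kinase, was at 8.03 and 8.0 on clone 1 and 6.77 and 6.60 on clone 5, and the vector clones, V3 at 9.14 and 9.28 and V1 at 8.92, lay above clone 1. It was the only gene among 32 of actin and contractility that passed at its brightest probe set. Of 32 collagens, COL5A2 and COL4A5 were higher and COL21A1 lower at their brightest probe sets. COL1A1, the main chain of type I collagen, did not pass at its brightest one, whose name ends in _x_at (-0.31, adjusted p 0.221), but 2 of its 4 other probe sets were much lower in clone 5. One was at 10.55 and 10.46 on clone 1 and 7.41 and 7.46 on clone 5, with V3 at 4.84 and 4.84 and V1 at 2.97 (log2 difference -3.07, SE 0.09, adjusted p 0.000162). The other was at 9.82 and 9.97 against 5.82 and 6.75 (-3.61, SE 0.27, adjusted p 0.00215). On both, clone 1 was highest and clone 5 lay between it and the vector clones. COL5A2, a fibrillar collagen chain, was at 6.27 and 6.05 on clone 1 and 7.99 and 8.15 on clone 5, with the vector clones at 6.81 and 6.97 and 6.33, nearer clone 1. Among 20 integrins, 34 extracellular proteases and inhibitors and 17 S100 family genes, 0 passed in limma, and 5, 4 and 4 had an unadjusted p of at most 0.05. S100A13 was lower at another probe set. ITGA3 had the largest integrin difference, -0.49 (SE 0.12, adjusted p 0.0932).

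HSPA6, an inducible heat shock chaperone, was at 5.28 and 5.02 on clone 1 and 7.14 and 7.18 on clone 5, with V3 at 5.19 and 5.21 and V1 at 4.71, so clone 5 alone was high. HSPA1L was the other called member of 21 heat shock chaperones, at 5.54 and 5.70 and 6.25 and 6.25, and the list's median was 0.20. Chaperone genes of this family are near copies of each other, and these probe sets may read more than 1 of them. The ribosomal precursor RNA45SN5 was higher too, at 5.92 and 5.91 and 7.09 and 7.16, though its other probe set did not pass. The 18S ribosomal controls moved with it, at 6.43 to 6.48 on clone 1 and 6.90 to 7.41 on clone 5; their part in the result was not tested.

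Genes of vesicle traffic, guidance and transport differed in small numbers. In Arf and Rab trafficking 3 of 27 were lower (11.1%). RAB27B, a GTPase of regulated secretion, was at 10.62 and 10.46 on clone 1 and 9.33 and 9.28 on clone 5, but V3 (6.15 and 6.14) and V1 (5.78) lay far below both. RASEF, a Rab-like protein, was at 7.31 and 7.23, 4.61 and 5.15, 7.86 and 7.99 and 7.86 in the same order, clone 5 alone being low. In guidance SLITRK6, PLXNA1 and NTN4 were lower out of 35 (8.57%), PLXNA1, a semaphorin receptor, by -0.85. CXCR4, the receptor of the chemokine CXCL12, was the only gene among 23 of its list, chemokine receptors, that passed at its brightest probe set, at 6.02 and 6.25 on clone 1 and 4.12 and 4.07 on clone 5, and all 3 of its probe sets were lower.

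Higher in clone 5 were the efflux pump ABCG2, the only called gene of 25 in its list, at 4.63 and 4.21 on clone 1 and 6.66 and 6.52 on clone 5, and the Rac activator DOCK4, at 3.77 and 3.89 and 5.94 and 5.50. Vector clones were higher still for both, with V3 at 7.69 and 7.79 and 8.20 and 8.17. DOCK3, the only other called member of 24, was lower but dim (4.81 and 4.72 to 3.97 and 4.16). Of 26 synaptic and neuroendocrine genes, SV2A, a synaptic vesicle protein, and NTS, the peptide neurotensin, were higher and RET, a receptor tyrosine kinase, was lower. NTS read 3.29 and 3.92 on clone 1 and 4.74 and 4.74 on clone 5. The vector clones lay on opposite sides, V3 at 6.27 and 6.39 and V1 at 3.12.

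Beyond the lists, the next 20 genes of largest difference in each direction, ranks 9 to 28, included several enzymes and regulators. BCAT1, which transaminates branched-chain amino acids, was higher, from 6.01 and 5.61 on clone 1 to 7.26 and 7.24 on clone 5, as 2 of its 3 other probe sets were. PIK3R1, a regulatory subunit of phosphoinositide 3-kinase, was at 5.93 and 5.91 and 7.11 and 6.98, and PAPSS2, which makes the sulfate donor PAPS, at 6.50 and 6.46 and 7.46 and 7.53. For PAPSS2 the vector clones (5.99 and 6.15 on V3, 6.35 on V1) were below both S100P clones, as they were for PCOLCE2, a procollagen processing enhancer, which was at 5.94 and 5.75 and 7.18 and 6.67. DIPK1A, SCML1, AMOTL1, MDFIC, C1QTNF12, CRMA, TRHDE, AGAP4, ZNF512 and SLCO4A1 completed the higher genes, by 1.03 (SLCO4A1) to 1.53 (DIPK1A).

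Among the lower genes of these ranks were transcription factors of epithelial and immune cells. GATA3 was at 9.08 and 9.04 on clone 1 and 7.49 and 7.52 on clone 5, and its 2 other probe sets were also lower. GRHL3, a grainyhead factor of surface epithelium, was at 8.61 and 8.58 and 6.88 and 7.09. TSC22D3, the glucocorticoid-induced leucine zipper, was at 9.47 and 9.42 and 7.96 and 7.79, and SIK1, a salt-inducible kinase, at 8.81 and 8.86 and 7.04 and 7.36. A second TSC22D3 probe set was lower too (-1.04, adjusted p 0.0128 in limma), and a further one was dim (mean 3.48). A second SIK1 probe set, at 6.65 and 6.67 on clone 1 and 6.84 and 6.65 on clone 5, did not pass (adjusted p 0.754). The remainder were RAB39B, FILIP1L, ARL14, SPOCK1, AMIGO2, ANKRD6, LRATD2, GSAP and IGDCC4, by -1.57 (IGDCC4) to -1.92 (RAB39B). Names ending in _x_at mark probes that may read several transcripts; KRT8, KRT18, DIPK1A, PLAGL1, GSAP, JUN and SLC1A4 rest on such probe sets.

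Taking each gene at its brightest probe set leaves some differences out. Another 239 genes did not pass there but did at a different probe set, 158 lower, 79 higher and the other two in both directions. COL1A1 had the largest of these differences. DUSP8, a phosphatase of stress kinases, was next, at 7.68 and 7.76 on clone 1 and 5.20 and 5.20 on clone 5, and PCDH7, a protocadherin, was the highest, at 3.41 and 3.80 against 5.88 and 5.97. Both were chosen after their values were seen. In the ATF4 list other probe sets added ALDH1L2, MTHFD2, SARS1 and SLC38A2, all lower, and in mitosis AURKB, KIF23 and NUSAP1, all higher. Against the direction of its list, the p53 target ZMAT3 was higher (0.91, adjusted p 0.0203 in limma). PHLDA1 of the early response list was lower at 1 probe set (-0.79) and higher at another (0.69).

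The vector clones place these differences. For the 464 lower genes, V3 and V1 were both nearer clone 5 in 348 (75.0%) and both nearer clone 1 in 46 (9.91%). For the 133 higher genes the counts were 82 (61.7%) and 23 (17.3%), and over all genes the shares were 39.7% and 28.6%. By this count both vector clones lay on clone 5's side of the midpoint for most of the called genes. A vector clone far past clone 5 also counts as nearer to it, so the count does not tell which clone stood apart. In the ATF4 list the median deviation from the mean over the 7 arrays was 0.39 and 0.40 on clone 1 and -0.76 on V1. In DNA replication it was -0.28 and -0.37 on clone 1 and 0.71 on V1. The early response list differed, with 0.36 and 0.32 on clone 1 and -0.17 on V1. In the ATF4 list 13 of 16 called genes had both vector clones nearer clone 5 and 0 nearer clone 1, in the early response list 13 of 16 against 1 (FOSL1), in mitosis 7 of 8 and in DNA replication 5 of 5. Genes with both vector clones nearer clone 1 included CDH2, RASEF, MYLK, HSPA6, PLAGL1, COL5A2, COL4A5, EPHB6, EFNA5, IFIT2, IRF1, PLK2, NTN4, CCL2, IL18 and NFKBIA. These shares carry no test, since V3 has 2 arrays and V1 has 1, and the doubt over how V1 was processed applies to each. V3 alone was nearer clone 5 for 79.7% of the lower, 73.7% of the higher and 53.2% of all genes.

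**Figure D5:**
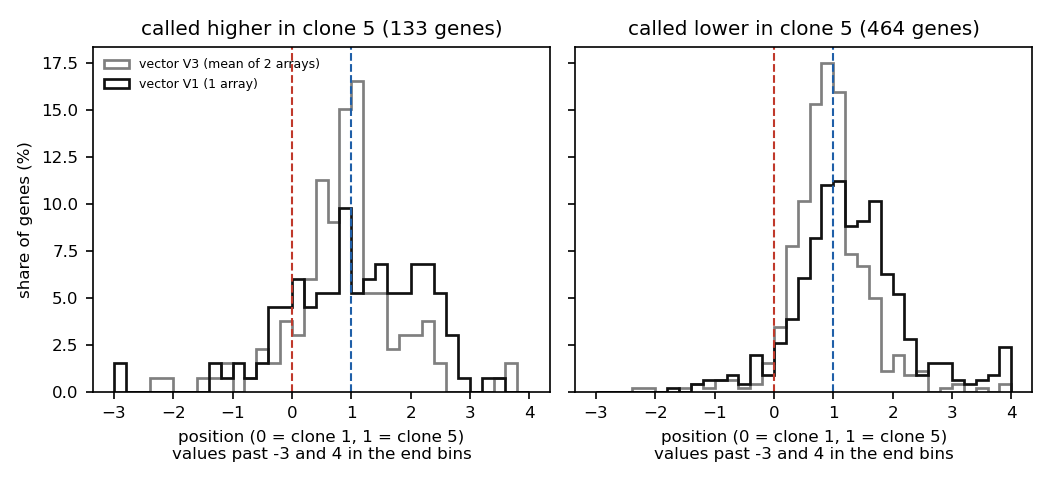
For each called gene, the value of a vector clone is placed on a scale where 0 is the mean of clone 1 and 1 the mean of clone 5 (dashed lines); the vertical axis is the share of genes in each bin, for 133 higher (left) and 464 lower genes (right). The median position of V3 is 0.91 for higher and 0.92 for lower genes, and that of V1 is 1.08 and 1.23.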

How the data were processed

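RNA of Panc1 clones was measured on 7 Affymetrix arrays. Per the submitters' processing notes the authors ran RMA, which corrects background, scales the arrays to each other and sums up probes, and the deposited values were taken as log2, a scale read from their range of about 2 to 14 and not stated in words. For dim probe sets RMA can make differences look smaller. Its version is not given in the sources used here. No detection calls were used. Precision is limited by how few arrays there are.

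Of 54675 probe sets 62 controls were left out. Genes were named from the 41091 probe sets with 1 symbol in the platform annotation (1801 had several and 11721 none), each gene at its probe set of highest mean, which gave 19775 genes. limma 3.58.1 in R 4.3.3 fitted the 4 clones as fixed effects to all 7 arrays, with 3 residual degrees of freedom, and p-values were adjusted by Benjamini-Hochberg over all probe sets. The fit was tested on simulated data. The genes named were S100P, ranks 1 to 28 among called genes in each direction, and up to 4 members of largest difference in each of 40 lists. The members and lists were chosen with earlier results of these data known. Other genes are named as called members of a list. Promoters from RefSeq, without those on chr8, matched 86 of 111 named called genes. Figures used matplotlib 3.10.9. Alternatives were a fit of 4 arrays, each array left out, a block of the array letter, other scalings, a level filter, an added offset and other probe sets.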

Additional observations from a re-analysis of the deposited data

How the results depend on the processing

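The calls rest on the pooled spread of the 6 arrays of clone 1, clone 5 and V3, since V1 has a single array. A limma fit of the 4 arrays alone gave 0 probe sets and 0 genes, and so did each fit without an array of clone 1, clone 5 or V3 (0 to 0), although 1928 to 4581 genes had an unadjusted p of at most 0.05 in the latter. Over probe sets of mean log2 of at least 6 the count was 2845 (1555 genes, of which 427 were higher), or 2153 (1225 genes) with the 4 arrays alone. With that filter and each array left out (both reduced fits with the filter were chosen after seeing the data), it was 912 to 2529 (505 to 1376 genes), with 1906 (1009 genes) without array a of clone 5. Of the 597 called genes, 474 pass this filter, and 376 were called in all 6 such fits. Centring arrays on the median gave 1813 probe sets and 904 genes (751 lower), a variance trend with a robust prior 1714 and 903 (232 higher), quantile normalization 1609 and 820, and an offset of 32 gave 1217 and 649. The cause of these shifts was not tested.

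Arrays of the same letter did not deviate together (r = 0.05 for clones 1 and 5, -0.08 for clone 1 and V3, 0.06 for clone 5 and V3). The labels do not define the letters. Correlations of normalized values could miss a weak shared shift, so whether the letters pair samples stays unknown. With the letter as a replicate block 1275 probe sets and 619 genes were called, and 108 of 111 named genes remained called. Of those 111, 93 stayed called with the offset and 109 after quantile normalization. Taking only probe sets whose names end in plain _at, 487 genes were called, and the sign turned for SIK1 (0.086), TSC22D3 (0.13), ASNS (0.058), NFKBIA (0.075) and FZD5 (0.28), and these differences did not pass. All but that of SIK1 rest on dim probe sets (means of 2.90 to 4.60), which bear little on these genes. Of 40 list medians, 30 kept their sign when arrays were centred, and those of the ATF4 (-0.56 to -0.41), early response (-0.75 to -0.39), mitosis (0.29 to 0.36) and DNA replication (0.22 to 0.32) lists kept it in every alternative run. S100P ranged from -0.55 to -0.40 with an array left out.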

Other observations

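Neighbouring genes were compared as groups. Over 19686 genes placed in order along the chromosomes, the median difference of clone 5 minus clone 1 in windows of 51 genes ran from -0.13 (SCUBE2 to KCNJ11) to 0.14 (HCG22 to SKIC2). Between arrays a and b of clone 5 the same measure ran from -0.13 to 0.16, and between those of clone 1 from -0.08 to 0.07. Against V3 the windows of clone 1 ran from -0.26 to 0.39 and those of clone 5 from -0.23 to 0.39. The ranges against V3 were wider than the range between the S100P clones. Among called genes that are direct neighbours and moved the same way were KRT8 and KRT18 (1.15 and 0.69), STEAP1 and STEAP2, metalloreductases (-0.53 and -1.39), KLF5 and KLF12, zinc finger factors (-1.40 and -0.87), SLC7A11 and NOCT (-1.03 and -1.14), and GPR143, SHROOM2 and WWC3 on the X chromosome (-0.66, -1.18 and -0.81). These pairs were chosen after their values were seen, and no test was made of them.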
